A study of Mus musculus with 4 samples.

Results

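The MHC class II genes were followed across the cell lineages of fibrotic mouse lung. The 7 genes are H2-Aa, H2-Ab1 and H2-Eb1, which encode chains of the peptide-presenting molecules, H2-DMa and H2-DMb1, which encode the H2-DM peptide exchange factor, Cd74, which encodes the invariant chain, and Ciita, which encodes the transactivator of the family. They were chosen by name, with earlier results of these data known, and are 7 of the 32286 genes in the files. The question was where these genes were expressed outside immune cells, and whether their levels differed between genotypes.

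Lung cells came from 4 mice, 2 Tubb3-/- mice and 2 wild-type (WT) littermates, 8 to 11 weeks of age. All were given 0.8 U/kg bleomycin intratracheally and taken on day 14. The paper used both sexes in such experiments and does not name the sex of these 4 mice. The Tubb3-/- mice carry Cre in frame at the translation start of Tubb3 on both alleles, so the line is at once null for Tubb3 and a Cre knock-in, and no untreated lung was included. Each mouse gave whole lung cells, from which red cells were removed, and mural cell-enriched mesenchymal cells, from which cells bearing CD31, CD45 or EpCAM were also depleted. The 4 mice of each kind were tagged and run as 1 pool, so free RNA in a pool was shared by its mice. From the mesenchymal pool, mural (MCAM+ PDGFRα-) and non-mural (MCAM-) cells were sorted and mixed in equal parts.

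After filtering, 30092 cells were kept, with 3055 to 4656 cells and 39334630 to 84809277 unique molecular identifiers (UMIs, the counted transcript molecules) per library. A cell was assigned to a lineage by 1 or more UMIs of a gate gene, which was Ptprc for immune, Cdh5 for endothelial, Epcam for epithelial, Msln for mesothelial, Higd1b or Myh11 for mural and Pdgfra for fibroblast cells. Cells matching several gates, 45.7% of those kept, were dropped, which left 4365 immune, 2274 endothelial, 320 epithelial, 322 mesothelial, 4518 mural and 3786 fibroblast cells. Of 5 independent markers per lineage, all were highest in their own lineage except Dcn, which was highest in mesothelial and not fibroblast cells. Tubb3 was at 0.864 to 5.43 CPM (a gene's UMIs per 1000000 UMIs of the same cells) in the WT libraries and at 0.285 to 0.719 CPM in the Tubb3-/- libraries.

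Class II molecules display peptides from engulfed proteins to CD4 T cells. Dendritic cells, B cells and macrophages make them constitutively, and other cells can be induced to do so by interferon gamma. Ciita does not bind DNA itself but is recruited to an assembly of factors on the X and Y boxes of class II promoters, and the invariant chain occupies the peptide groove until H2-DM helps exchange its remnant for a peptide. Alveolar type 2 cells and lung capillary endothelium are known to carry class II molecules outside the immune system.

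By the GENCODE annotation of GRCm38, 5 of the 7 genes lie together on chromosome 17: H2-DMa at chr17:34119541-34139101, H2-DMb1 at chr17:34153072-34160230, H2-Ab1 at chr17:34257689-34269419 and H2-Eb1 at chr17:34305867-34316674 on the plus strand, and H2-Aa at chr17:34282744-34287823 on the minus strand. Ciita lies at chr16:10480059-10528418. H2-DMa overlaps Brd2 on the other strand, and H2-DMb1 has a close copy, H2-DMb2, with which reads may be confused. From the RefSeq promoter table (GRCm38.p6) the windows of 4 of the 7 members were used. The 150 bases before the start are shown for the 3 whose windows carried both boxes, because genes of this family share these elements and Ciita acts through them. Capitals mark the letters searched for, TGATTGG for the Y box and TGATGATG or TGACGTCA for the X box, which were chosen after these promoters had been read, on either strand and without overlap between them. The windows are chr17:34287824-34287973 (minus strand) for H2-Aa, chr17:34305717-34305866 (plus) for H2-Eb1 and chr17:34153041-34153190 (plus) for H2-DMb1, each written 5′ to 3′ toward the gene.
H2-Aa: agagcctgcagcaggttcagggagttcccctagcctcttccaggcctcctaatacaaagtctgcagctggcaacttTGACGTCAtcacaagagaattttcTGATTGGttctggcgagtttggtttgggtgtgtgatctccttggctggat
H2-Eb1: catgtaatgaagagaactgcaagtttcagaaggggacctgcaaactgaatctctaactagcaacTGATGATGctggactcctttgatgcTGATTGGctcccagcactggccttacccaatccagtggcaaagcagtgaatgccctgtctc
H2-DMb1: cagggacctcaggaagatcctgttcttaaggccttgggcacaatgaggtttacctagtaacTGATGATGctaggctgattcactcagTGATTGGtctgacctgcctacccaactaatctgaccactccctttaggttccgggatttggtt

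In each of these windows the X box letters lay upstream of the Y box letters, which began at -50 in H2-Aa, -61 in H2-Eb1 and -63 in H2-DMb1, counted from the start. The Y box letters were held by 5.71% of 32851 windows of the same length, TGATGATG by 0.761% and TGACGTCA by 1.36%, and the Y box with either X box by 0.125%. Neither window of H2-DMa held any of the letters.

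The whole lung libraries, in which all lineages shared one pool, are described first. Cd74, which lies apart from the others on chromosome 18, was at 6956 CPM in immune cells of WT 1, 3234 CPM in WT 2, 5852 CPM in Tubb3-/- 1 and 4939 CPM in Tubb3-/- 2. Epithelial cells came next, at 2026 and 2830 CPM in WT and 2033 and 1708 CPM in Tubb3-/- lungs, and endothelial cells were at 521 and 359 CPM in WT and 666 and 891 CPM in Tubb3-/- mice. The ranges of these 3 lineages did not overlap. Fibroblasts were lowest, at 93.9, 113, 92.2 and 88.2 CPM in the same order. Mural cells (183, 576, 116 and 143 CPM) and mesothelial cells (259, 120, 170 and 499 CPM) overlapped each other and endothelial cells, and lay just above fibroblasts.

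**Figure D1:**
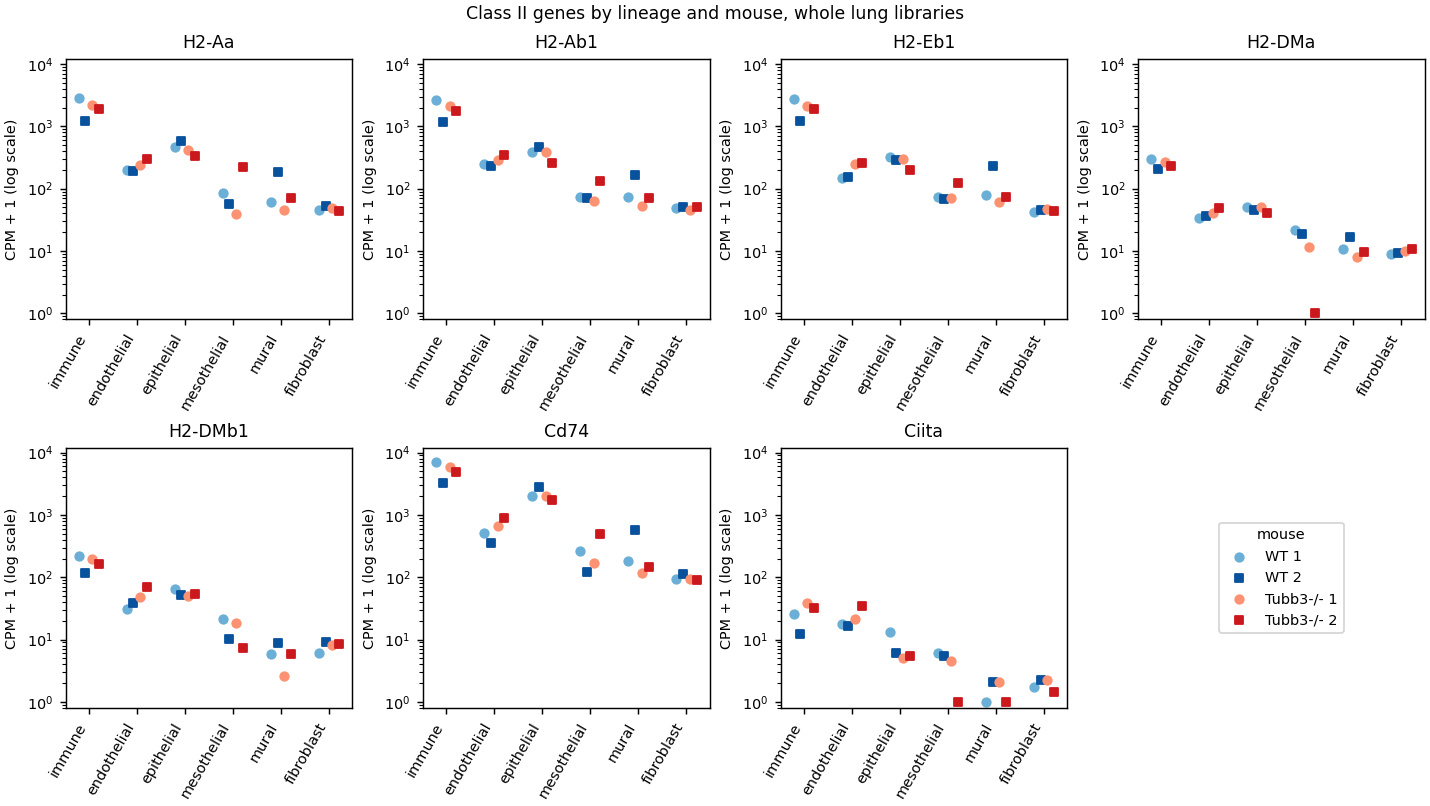
Each panel plots 1 gene in the whole lung libraries, with lineage on the x axis and CPM + 1 on a log y axis, and 1 point per mouse (blue WT, red Tubb3-/-, circles replicate 1, squares replicate 2). Cd74 fell from 3234 to 6956 CPM in immune cells to 88.2 to 113 CPM in fibroblasts, while Ciita in endothelial cells (15.3 to 34.1 CPM) overlapped its range in immune cells.

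The peptide-presenting chains followed the same order. H2-Aa averaged 2029 ± 681 CPM (SD, n = 4 mice) in immune, 450 ± 104 in epithelial, 233 ± 46.9 in endothelial and 46.8 ± 3.91 in fibroblast cells. For H2-Ab1 the epithelial range (253 to 461 CPM) overlapped the endothelial range (232 to 342 CPM), as it did for H2-Eb1 (199 to 321 against 147 to 253 CPM), so these neighbors were not separated by the spread between mice. The peptide exchange genes behaved alike: H2-DMa was at 46.2 ± 4.58 CPM in epithelial and 38.7 ± 6.42 in endothelial cells, against 252 ± 40.5 in immune and 8.70 ± 0.835 in fibroblast cells, and H2-DMb1 was at 54.6 ± 6.74 and 46.3 ± 17.1 CPM against 174 ± 44.4 and 6.90 ± 1.32.

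Ciita departed from that order. It was at 17.0, 15.3, 20.2 and 34.1 CPM in endothelial cells of WT 1, WT 2, Tubb3-/- 1 and Tubb3-/- 2, and at 25.0, 11.2, 37.1 and 30.6 CPM in immune cells of the same mice. The ranges overlapped, so endothelial and immune cells were not separated for the transactivator, although the immune level of each class II gene it controls was several times the endothelial one. Epithelial cells held less Ciita, at 12.2, 5.19, 4.02 and 4.49 CPM, and fibroblasts and mural cells were at 1.27 CPM or below in every mouse.

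Each lineage was tested against fibroblasts in 1 edgeR quasi-likelihood fit with the mouse as a block (14033 genes, false discovery rate 0.05). All 7 genes were higher in endothelial cells, where 31.2% of genes tested were higher, and all 7 in epithelial cells, where 30.2% were. The median log2 difference of the 7 was 2.41 in endothelial and 2.98 in epithelial cells, against 0.09 and 0.06 over all genes. Cd74 was higher by 4.50 ± 0.444 (SE) on the log2 scale in epithelial cells (adjusted p = 5.32e-09) and by 2.54 ± 0.410 in endothelial cells (adjusted p = 1.03e-05). Ciita had the opposite order, with 4.43 ± 0.371 in endothelial (adjusted p = 2.78e-10) and 2.94 ± 0.591 in epithelial cells (adjusted p = 1.59e-04). In immune cells all 7 were higher, by 4.70 to 5.85, where 37.1% of genes were. In mesothelial cells 0 of 7 passed, with 1 at an unadjusted p under 0.05 (Cd74, log2 difference 1.10 ± 0.446, adjusted p = 0.069), where 12.2% of all genes were higher.

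In mural cells 3 of 7 passed, where 15.7% of genes were higher: Cd74 (1.24 ± 0.407, adjusted p = 0.0215), H2-Eb1 (1.19 ± 0.328, adjusted p = 0.00672) and H2-Ab1 (0.78 ± 0.286, adjusted p = 0.0411). These calls depended on single mice. Without WT 2, whose mural cells held 576 CPM of Cd74, 0 passed, without WT 1 only H2-Eb1 did, and without either Tubb3-/- mouse Cd74 and H2-Eb1 did. When both libraries of each mouse were summed 0 passed. The 10 immune reference genes, a list of leukocyte genes such as Tyrobp and Laptm5, summed to 327 CPM in the mural cells of WT 2 and to 148 to 191 CPM in those of the other mice. In cells without UMIs of these 10 genes, which left 15 to 33 mural cells per mouse, 0 passed. The part of leukocyte RNA in the calls was not tested beyond these values.

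The level of each gene outside immune cells was then set against its whole lung immune level, 4 mice summed, beside the same percentage for the 10 immune reference genes. A second list held 8 genes of macrophages and B cells, such as C1qa and Cd79a, which are fewer in UMIs. In whole lung fibroblasts the members were at 1.78% to 3.95% of the immune level and the reference genes at 1.34% to 2.07%. In endothelial cells the members stood at 10.8% to 85.9%, with Ciita highest, while 9 of the 10 reference genes were at 2.97% or below and Lcp1, an actin-bundling gene, was at 12.7%. In epithelial cells the members were at 14.0% to 40.6%, with Cd74 highest, and above all 10 reference genes, of which Cytip was highest at 11.7%. Mural (2.23% to 4.77%) and mesothelial members (3.80% to 13.7%) lay near or just above their reference genes, which ran from 1.94% to 3.71% and from 2.43% to 4.35%. The macrophage and B cell genes stood at 1.53% to 3.35% in endothelial cells, below every member. They reached 19.2% in epithelial cells (Cd79b, above H2-Eb1 and H2-DMa and level with H2-Ab1), 13.5% in mural cells (Ms4a1, above every member) and 23.8% in mesothelial cells (Cd79b, above every member), on 31, 23 and 11 UMIs.

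**Figure D2:**
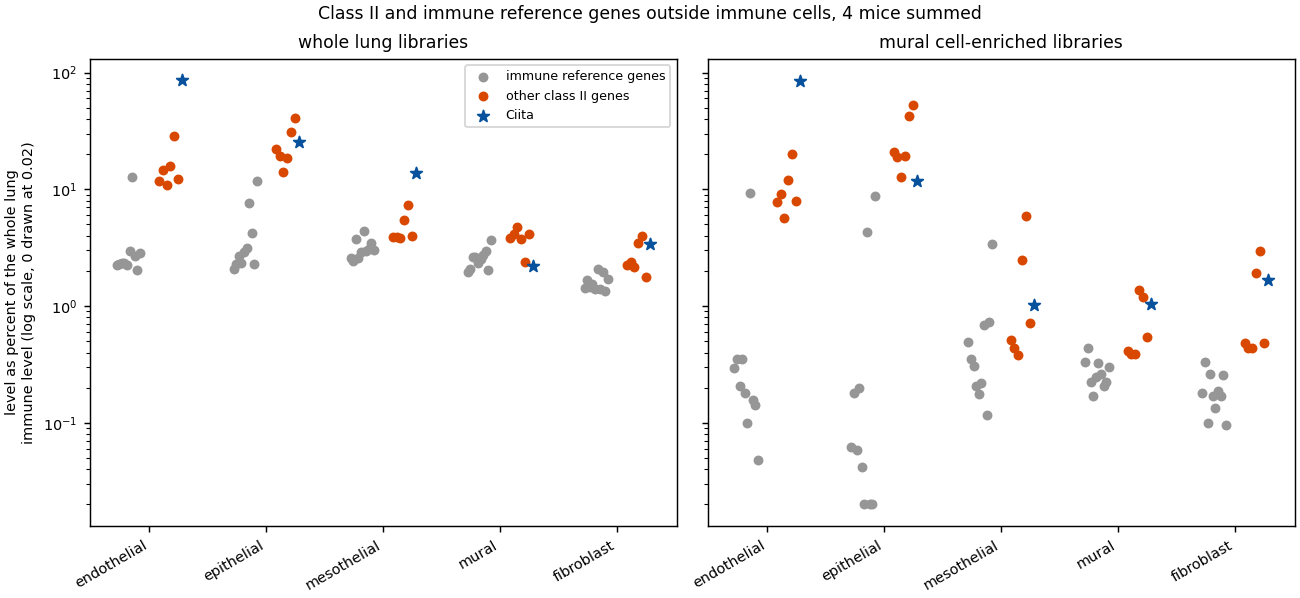
The log y axis gives each gene's level as a percent of its level in whole lung immune cells, 4 mice summed, for class II genes (orange, Ciita as a blue star) and immune reference genes (gray), by lineage on the x axis, with values of 0 drawn at 0.02. In the mural cell-enriched libraries (right) most gray points fall below 1%, while the class II genes of endothelial cells (5.67% to 85.4%) and epithelial cells (11.7% to 53.0%) do not.

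The mural cell-enriched libraries held few leukocytes, 93 gated immune cells against 4272 in whole lung. Their endothelial and epithelial cells were those that escaped depletion, so the cells compared may differ as well. The summed level of the 10 reference genes was lower there, in endothelial cells by 3.15-fold and in fibroblasts by 8.13-fold. In endothelial cells their median went from 2.35% to 0.195% of the whole lung immune level. The highest percentage among them was 12.7% in whole lung and 9.31% in the enriched libraries, so the endothelial sum fell less than the median did. In endothelial cells Ciita was at 32.1, 24.8, 19.9 and 21.8 CPM in WT 1, WT 2, Tubb3-/- 1 and Tubb3-/- 2, higher than in whole lung in both WT mice and lower in Tubb3-/- 2, and the whole lung over enriched ratio was 1.01 for the 4 mice summed. Cd74 was at 103, 158, 310 and 808 CPM, with every mouse below its whole lung value. Its ratio ran from 1.10 in Tubb3-/- 2 to 5.04 in WT 1, where it exceeded that of the reference gene sum (3.06). The Cd74 ratio was 1.55 for the 4 mice summed and 2.51 without Tubb3-/- 2. Epithelial Cd74 was at 1832, 2028, 2597 and 3908 CPM, lower than in whole lung in both WT mice (ratios 1.11 and 1.40) and higher in both Tubb3-/- mice (0.783 and 0.437). The reference gene sum fell in all 4 mice, by 1.86-fold to 3.71-fold, and 3 of the genes (Cd53, Rac2 and Spi1) were at 0 UMIs there. The median of the 10 genes went from 2.8% to 0.0605% of the whole lung immune level, with the highest at 8.83% in the enriched libraries.

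In fibroblasts, mural and mesothelial cells the presenting chains fell as well, by less or more than the reference genes. Fibroblast Cd74 was at 24.8, 18.3, 36.9 and 21.4 CPM, and its ratio was 3.66. The ratios of H2-Aa, H2-Ab1 and H2-Eb1 in fibroblasts were 4.69 to 5.50, and 9.19 to 12.3 in mural cells, where the reference genes fell by 8.39-fold. The peptide exchange genes did not fall as far. H2-DMb1 in fibroblasts was at 5.01, 8.07, 7.15 and 7.38 CPM in whole lung and at 5.43, 4.36, 5.95 and 5.13 CPM in the enriched libraries, a ratio of 1.33. H2-DMa had a ratio of 1.81.

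H2-DMb1 also differed between the mesenchymal lineages in the enriched libraries, a comparison added and a gene chosen after the data were seen. It was at 1.77 to 2.43 CPM in mural cells, 4.36 to 5.95 CPM in fibroblasts and 6.04 to 16.2 CPM in mesothelial cells. Mural cells were lower than fibroblasts by 1.36 ± 0.218 on the log2 scale (adjusted p = 1.32e-05, edgeR), where 22% of genes were lower, H2-DMa was lower too (-0.52 ± 0.199, adjusted p = 0.037), and mesothelial cells were higher by 0.84 ± 0.307 (adjusted p = 0.0332), where 19.3% of genes were higher. In whole lung neither difference of H2-DMb1 passed (adjusted p = 0.204 and 0.408), and in whole lung cells without immune UMIs both had the opposite sign (0.35 and -0.14).

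Finer gates, used as a description within each lineage, gave the levels in those whole lung cells that matched a single finer gate. Cells matching several finer gates of a lineage were left out of this description. In the enriched libraries these were 206 of 428 endothelial cells (Cd74 at 415 CPM) and 47 of 117 epithelial cells (3368 CPM). Among immune cells, Cd74 was highest in Flt3+ dendritic cells (17180 to 19840 CPM over the 4 mice, 237 cells), followed by C1qa+ macrophages (6271 to 12850 CPM, 205 cells) and B cells (8044 to 11140 CPM, 320 cells), whose ranges overlapped. NK cells were lowest, at 165 CPM for the 4 mice summed. Ciita was at 92.1 CPM in dendritic cells, 84.6 in B cells and 29.1 in C1qa+ macrophages, and at 2.48 CPM or less in alveolar macrophages, neutrophils and T cells.

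Among endothelial cells, general capillary cells (Aplnr or Gpihbp1, 539 cells) had 553, 460, 624 and 1175 CPM of Cd74 and 17.9, 16.6, 19.9 and 60.0 CPM of Ciita in WT 1, WT 2, Tubb3-/- 1 and Tubb3-/- 2. Aerocytes (Ednrb or Apln, 90 cells) had 111 to 168 CPM of Cd74 and 0 UMIs of Ciita, which allows up to 4.66 CPM. The 2 groups of capillary cell therefore did not overlap for Cd74 in any mouse, at summed reference gene levels of 251 and 244 CPM. The same held in the enriched libraries, where Cd74 was at 709 and 18.8 CPM for the mice summed. General capillary cells had 39.5 CPM of Ciita there and aerocytes 0 UMIs, which allows up to 14.1 CPM. Venous cells (51) were at 1476 CPM of Cd74, but 3086 CPM in Tubb3-/- 1 against 208 to 496 CPM in the other mice, with reference genes at 624 CPM. In the enriched libraries venous cells were at 253 CPM (14 cells). Their 0 UMIs of Ciita there allow up to 50.5 CPM, so they were not separated from general capillary cells for Ciita.

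Among epithelial cells, Cd74 was highest in Lamp3+ alveolar type 2 cells, with 4109 to 5650 CPM (38 cells) in whole lung and 2549 to 4191 CPM (20 cells) in the enriched libraries. Cldn4+ or Sprr1a+ transitional cells were at 1706 CPM (17 cells), Rtkn2+ type 1 cells at 898 CPM (11 cells) and Cyp2f2+ club cells at 273 CPM (15 cells), with type 1 cells ranging from 172 to 3168 CPM between mice. Ciita in alveolar type 2 cells rested on 8 UMIs. Some cells matched no finer gate and carried leukocyte RNA: 20 epithelial cells had 3372 CPM and 99 endothelial cells 1046 CPM of the reference genes, with Cd74 at 5100 and 2221 CPM. Leaving them out, a choice made after the data were seen, all 7 genes were still higher than in fibroblasts in both lineages, with Cd74 at 4.31 and 2.35 on the log2 scale.

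**Figure D3:**
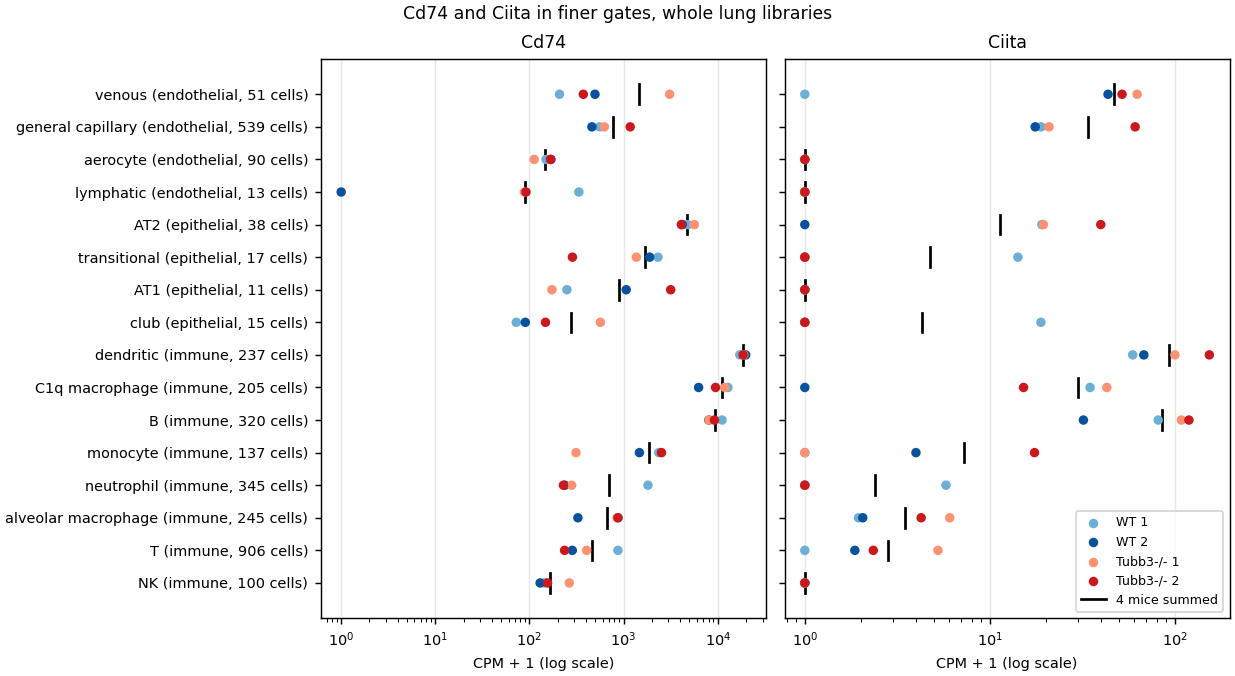
Points give Cd74 (left) and Ciita (right) as CPM + 1 on a log x axis for each finer gate of 10 or more cells in the whole lung libraries, 1 point per mouse, and the black bar gives the 4 mice summed. General capillary cells and aerocytes are apart for Cd74 (460 to 1175 against 111 to 168 CPM), and Ciita had 0 UMIs in aerocytes.

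The share of cells with a UMI was taken after each cell was thinned to 2000 UMIs, because median depth ran from 6769 UMIs in immune to 17196 in fibroblast cells of whole lung. In whole lung 45.4% ± 9.67 (SD, n = 4) of endothelial and 61.2% ± 8.79 of epithelial cells had a Cd74 UMI, against 52.2% ± 5.76 of immune and 16.9% ± 2.25 of fibroblast cells. Tyrobp, which these lineages should lack, gave 7.64%, 5.84% and 5.93% in endothelial, epithelial and fibroblast cells. In whole lung immune cells Tyrobp was at 1681 CPM and Cd74 at 5362 CPM, 4 mice summed, so their shares are not directly comparable. In the enriched libraries the shares with Cd74 were 27.3% and 68.7% in endothelial and epithelial cells and 4.11% and 4.46% in fibroblast and mural cells, with Tyrobp at 1.26%, 0.714%, 0.879% and 0.757%. Both Cd74 and H2-Aa were seen in 18.8% ± 6.52 of endothelial, 33.2% ± 9.57 of epithelial and 2.10% ± 0.520 of fibroblast cells of whole lung. Thinning left out 75 endothelial, 120 immune, 11 fibroblast and 0 epithelial cells, and unthinned shares with Cd74 were 74.9%, 89.9% and 72.4% in endothelial, epithelial and fibroblast cells.

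**Figure D4:**
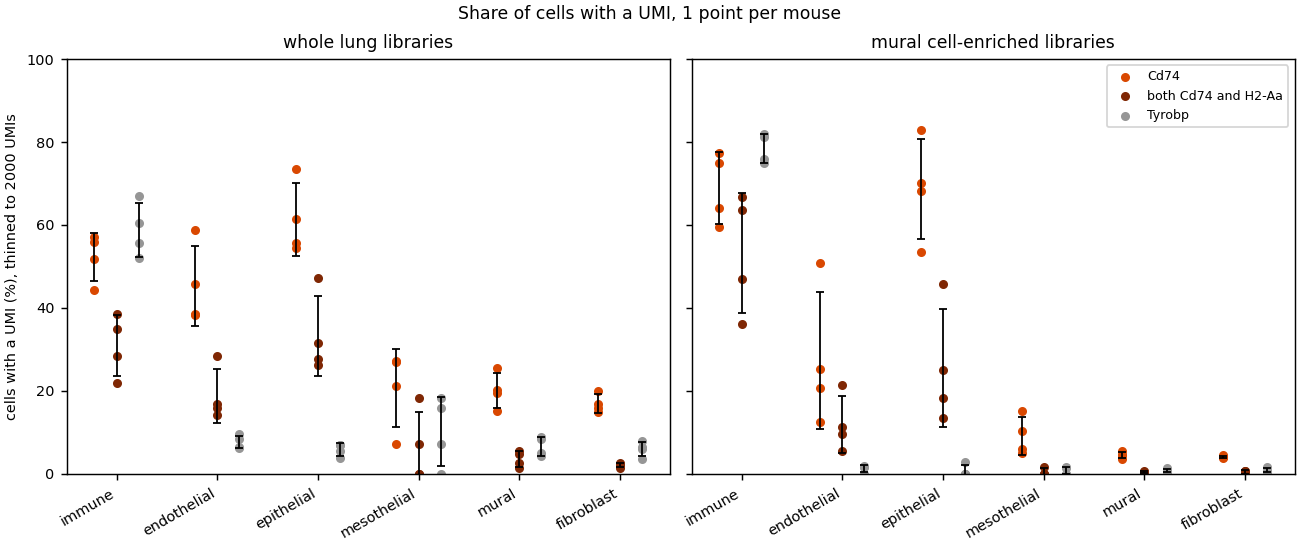
The y axis gives the percent of cells with a UMI of Cd74, of both Cd74 and H2-Aa, or of Tyrobp after thinning to 2000 UMIs, by lineage on the x axis, with 1 point per mouse and bars of 1 SD around the mean. Endothelial cells (45.4% in whole lung, 27.3% in the enriched libraries) and epithelial cells (61.2% and 68.7%) stay above Tyrobp for Cd74. Cd74 is also the more abundant gene in whole lung immune cells (5362 against 1681 CPM, 4 mice summed).

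Genes outside the family that work with it were read in the same fit, as counts of list members passing against fibroblasts. Of 8 class II partners, epithelial cells had 4 higher and 2 lower and endothelial cells 1 higher and 3 lower, where over all genes 30.2% and 31.2% were higher and 25.5% and 27.6% lower in these lineages. Against those shares the counts of this list and of the regulators and costimulation genes are small and stand as descriptions. The 4 in epithelial cells were H2-Oa (2.01), H2-DMb2 (1.94), Ifi30 (1.16), a lysosomal thiol reductase, and H2-Ob (1.13 on the log2 scale). H2-Oa, H2-DMb2 and H2-Ob passed narrowly (edgeR adjusted p = 0.0436, 0.0457 and 0.0499). They averaged 1.85, 3.90 and 3.13 CPM in epithelial cells, against 24.3, 44.0 and 46.3 CPM in immune cells. The lysosomal proteases Ctsl and Lgmn were lower in both lineages, by 2.57 and 1.77 in epithelial and by 1.84 and 1.65 in endothelial cells. Of the 9 class I genes all were higher in endothelial cells, led by Nlrc5 (3.25 ± 0.295), the class I transactivator, and Psmb9 (2.59 ± 0.185), whereas 3 were higher and B2m was lower in epithelial cells.

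Among interferon gamma pathway genes in endothelial cells, the transcription factor Irf1 was higher (1.32 on the log2 scale) and the receptor chain Ifngr1 and the feedback inhibitor Socs1 were lower (-0.58 each). In epithelial cells Socs1, the kinase Jak1, Ifngr1 and Irf1 were all lower, at -2.57, -2.08, -1.93 and -1.13. Of 7 promoter-binding regulators, 3 were higher in endothelial (Nfya, Creb1 and Nfyb, by 0.36 to 0.82) and 1 was lower in epithelial cells, and the X box factors Rfx5, Rfxap and Rfxank passed in neither. Of 6 costimulation genes, Cd274 (2.37 ± 0.277) and Cd86 were higher and Icosl was lower (-2.50 ± 0.265) in endothelial cells. Cd86 passed narrowly (edgeR adjusted p = 0.0474) and averaged 6.50 CPM there, against 267 CPM in immune cells. In epithelial cells 0 were higher, and Cd40 and Icosl were lower by 4.97 and 4.70. As a check on leukocyte RNA, 4 of the 10 immune reference genes were higher in endothelial and 6 in epithelial cells, with list medians of 0.49 and 0.81, and of 8 genes of macrophages and B cells 0 and 2 were higher. The part of leukocyte RNA in the class II levels was not tested beyond these values.

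By likeness of pattern over the 24 lineage and mouse sums of whole lung, the gene closest to the mean of H2-Aa, H2-Ab1, H2-Eb1 and Cd74 (log2 of CPM + 1) was Malt1 (Pearson r = 0.966), followed by Lcp1 (0.951), Fam49b (0.939), Cytip (0.924) and Tmem189 (0.924) among 9966 genes. The sums share pools and mice, so no p was computed. Malt1 averaged 337 CPM in immune, 82.0 in epithelial, 33.1 in endothelial and 12.7 CPM in fibroblast cells.

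The genotypes were compared on UMIs summed over both libraries of each mouse, 2 mice against 2, with edgeR's quasi-likelihood test in each lineage. The p-values measure only the spread between these mice, and in such sums fewer cells of a subtype and less RNA per cell cannot be told apart. In endothelial cells all 7 genes were higher in both Tubb3-/- mice than in either WT mouse. The share of all genes separated in this way was not counted, so this stands as a description. H2-Eb1 averaged 140 ± 2.16 CPM (SD, n = 2) in WT and 237 ± 8.02 CPM in Tubb3-/- mice, and Cd74 397 ± 100 and 751 ± 179 CPM. None passed the adjusted test: the log2 differences were 0.77 ± 0.102 (SE) for H2-Eb1 (adjusted p = 0.0726), 0.93 ± 0.211 for Cd74 (adjusted p = 0.150) and 0.37 to 0.75 for the other five (adjusted p = 0.198 to 0.392). The median of the 7 was 0.57, against -0.01 over all genes, and 5 of the 7 had an unadjusted p under 0.05.

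edgeR called 0% of the 12708 genes tested in endothelial cells, with 1713 at an unadjusted p under 0.05. DESeq2 called 123, of which 74 were higher in Tubb3-/- mice, 0.582% of genes, and these included Cd74 (adjusted p = 6.71e-04) and H2-Eb1 (adjusted p = 3.84e-04). With the replicate number as a block edgeR called H2-Eb1 (adjusted p = 0.0441) and no other member, where 0.228% of genes were higher, and without the filter on low counts it called 5 members, where 2.44% were. In whole lung alone the 7 genes were also without overlap between genotypes, again with no share over all genes counted. In the enriched libraries that held for Cd74 (103 and 158 against 310 and 808 CPM), which edgeR called there (adjusted p = 0.00673, 0.247% of genes higher), and H2-Eb1, whereas Ciita was lower in both Tubb3-/- mice (19.9 and 21.8 against 24.8 and 32.1 CPM). The summed level of the immune reference genes in whole lung endothelial cells was 273 and 234 CPM in WT and 286 and 253 CPM in Tubb3-/- mice. Leaving out the cells without a finer gate gave 0.67 for H2-Eb1 and 0.93 for Cd74 (adjusted p = 0.111 and 0.131). Tubb3-/- 2 was the highest mouse for all 7 genes in whole lung, and without it Ciita fell to 0.22 on the log2 scale (adjusted p = 0.938), Cd74 to 0.69 (adjusted p = 0.236), H2-DMb1 to 0.45 and H2-DMa to 0.21.

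**Figure D5:**
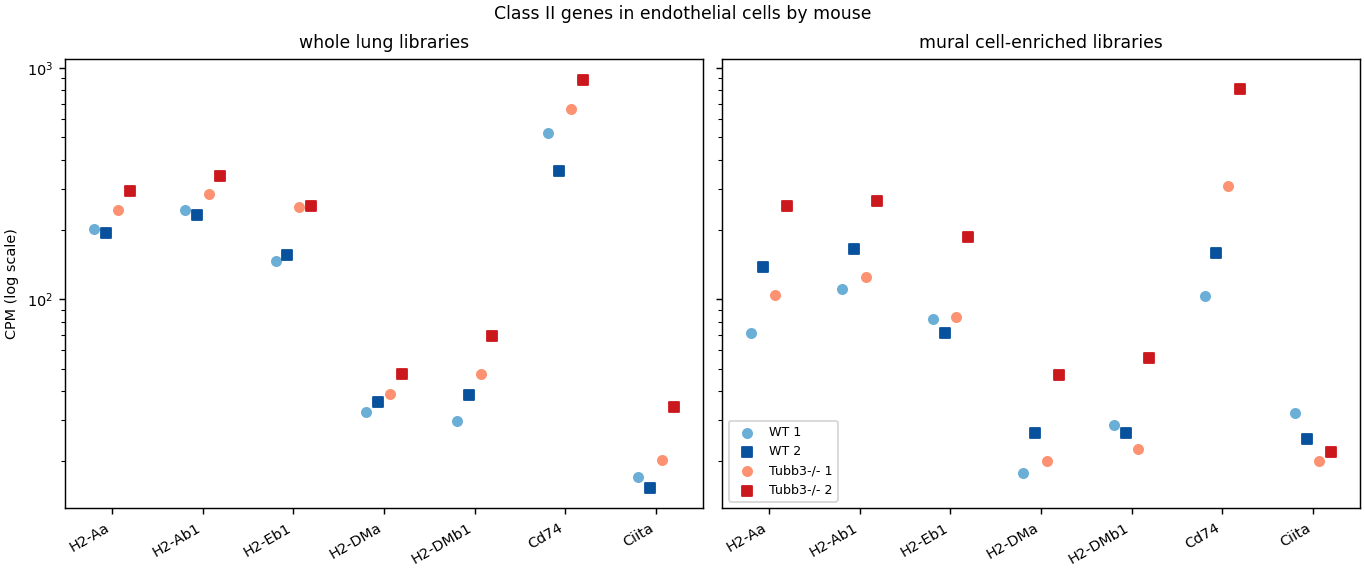
CPM of each class II gene in endothelial cells is plotted on a log y axis by gene, with 1 point per mouse (blue WT, red Tubb3-/-), for whole lung (left) and mural cell-enriched libraries (right). In whole lung both Tubb3-/- mice lie above both WT mice for all 7 genes, for example 666 and 891 against 521 and 359 CPM for Cd74, and in the enriched libraries the order of Ciita is the opposite. The share of all genes separated in this way was not counted, so this stands as a description.

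The share of endothelial cells with a Cd74 UMI after thinning was 38.4% in each WT mouse and 45.8% and 58.9% in the Tubb3-/- mice of whole lung, with an exact two-sided permutation p = 0.33, the smallest that 2 against 2 can give. In general capillary cells Cd74 was likewise higher in both Tubb3-/- mice, by the values given above.

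In immune cells the members other than Ciita differed by -0.04 to 0.08 on the log2 scale. The immune WT mice were far apart, with 2848 and 1208 CPM of H2-Aa in whole lung, and the Tubb3-/- mice (2182 and 1879 CPM) lay between them. Ciita was at 25.0 and 11.2 CPM in WT and 37.1 and 30.6 CPM in Tubb3-/- mice, a log2 difference of 0.89 ± 0.360 (adjusted p = 0.600). Without WT 1, the higher WT mouse, 6 of the 7 members were called higher in Tubb3-/- immune cells, where 1.94% of genes were, Ciita by 1.60 (adjusted p = 0.00116) and the others by 0.63 to 0.69. The WT group is then WT 2 alone, assumed to vary like the Tubb3-/- pair, which gives the only spread. Without the filter on low counts Ciita was called (adjusted p = 0.0435), where 0.652% of genes were higher. edgeR called 0% of 14053 genes in immune cells, with 1157 at an unadjusted p under 0.05, and DESeq2 called 70 and no member.

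In mural cells Cd74 was at 183 and 576 CPM in WT and 116 and 143 CPM in Tubb3-/- whole lung, and the summed difference was -1.15 ± 0.386 on the log2 scale (adjusted p = 0.368). H2-Aa, H2-Ab1 and H2-Eb1 were at -0.80, -0.78 and -0.90 (adjusted p = 0.408 to 0.498). Without WT 1, which leaves WT 2 as the lone WT mouse, these 4 genes were called lower (Cd74 at -1.67, adjusted p = 0.0205), where 0.384% of genes were, with the spread again from the Tubb3-/- pair alone. They were also called lower without the filter on low counts, where 1.93% of genes were. The reference genes were highest in WT 2 here also, as given above. edgeR called 0% of 14460 genes, with 1598 at an unadjusted p under 0.05, and DESeq2 called 158 and no member.

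Fibroblasts (log2 differences -0.10 to 0.28), epithelial cells (-0.21 to 0.10) and mesothelial cells (-0.12 to 0.47) had 0 members called, and Ciita was too low to be tested in epithelial, mesothelial and mural cells. edgeR called 0% of 14779 genes in fibroblasts, 0% of 10420 in epithelial cells and 0.231% of 9527 in mesothelial cells, with 2683, 445 and 797 at an unadjusted p under 0.05. DESeq2 called 504, 3 and 36 genes in them, and no member.

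The genotype difference of each lineage was finally tested against that of immune cells, in 1 fit over all lineages. For endothelial cells 0 of 7 members passed, against 0.0115% of 17466 genes. At an unadjusted p under 0.05 there were 0 members and 1186 genes. The difference of differences was 0.86 ± 0.489 for Cd74 (adjusted p = 0.794), 0.79 ± 0.428 for H2-Eb1 (adjusted p = 0.781) and -0.44 ± 0.367 for Ciita (adjusted p = 0.879). No member passed in the other lineages, where 0 (epithelial) to 16 (fibroblast) of 17466 genes did. At an unadjusted p under 0.05 in this edgeR fit were epithelial Ciita (-1.92 ± 0.669, adjusted p = 0.580) and mural Cd74 (-1.25 ± 0.503, adjusted p = 0.771). A genotype difference particular to endothelial cells was therefore not shown.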

How the data were processed

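Single-cell RNA was captured with 10x 3' chemistry from 2 pools of 4 mice each, and the 8 deposited matrices hold UMI counts per gene and cell, made by the authors with Cell Ranger 7.1.0 on mm10. The mouse of each matrix was read from its leading sample tag (88.1% to 94.7% of tag UMIs) through the tag assignment in the labels. Cells with 200 to 7500 genes and at most 15% mitochondrial UMIs were kept, and Scrublet calls (scanpy 1.11.5, score above 0.25, set after the data were seen because the automatic threshold called 2 whole lung cells) were removed, 269 and 499 cells. No barcode was shared within a pool and 59 were found in both. UMIs were summed per mouse and lineage and tested with edgeR 4.0.16 (filterByExpr, TMM, quasi-likelihood F test, Benjamini-Hochberg over all genes), with DESeq2 1.42.0 as an alternative. edgeR was tested on simulated data. CPM are UMIs per 1000000 of a sum. All 7 members and up to 4 passing members of each list were named. Members and lists were chosen with earlier results of these data known. Counting intervals and floors (3 UMIs) cover counting error only. Other gates, doublets, mitochondrial limits, libraries, normalizations, left-out mice and the replicate block were tried. The interferon gamma pathway list is given by named genes without its counts, because 1 result in it is not reported here.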

Additional observations from a re-analysis of the deposited data

Results flagged for a closer look

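Of 84 member levels over the 4 mice, by lineage and kind of library, 9 had 1 mouse far from the other three. About 1 in 20 such groups is picked out by chance, and the 4 mice include both genotypes. WT 2 stood high in whole lung mural cells for H2-Eb1 (230 CPM) and Cd74 (576 CPM), and in enriched mural cells for H2-Eb1 (10.6 CPM). Tubb3-/- 2 stood high in whole lung mesothelial cells for H2-Ab1 (131 CPM) and H2-Eb1 (125 CPM), which rest on 13 cells, in enriched endothelial cells for H2-Eb1 (185 CPM), and in enriched mesothelial cells for Ciita (1.08 CPM, against 0 in the other mice). WT 1 stood high for epithelial Ciita in whole lung (12.2 CPM) and low for H2-DMa in enriched immune cells (222 CPM, 13 cells).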

How the results depend on the processing

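Of the recomputed counts of members called, 139 stayed within 1.5 times the reported count and 17 did not. The 7 members higher than fibroblasts in endothelial and epithelial cells stayed within that limit under every alternative run, at the least 5 of 7 in epithelial cells without immune UMIs. The genotype calls did not hold at 0 throughout. Without the filter on low counts edgeR called 1 member in immune, 5 in endothelial and 4 in mural cells. In endothelial cells 1 was called in the enriched library alone (Cd74), 1 with the replicate block and 2 by DESeq2. Leaving out each mouse gave 0 to 6 members called in immune cells and 0 to 4 in mural cells. For lineages against fibroblasts, mesothelial calls went from 0 to 1 in the enriched library alone and with the leading gate, and to 0 to 1 on leaving out each mouse. Mural calls of higher members went from 3 to 0 with both libraries, the enriched library alone, 2 or more gate UMIs or cells without immune UMIs, and to 0 to 2 on leaving out each mouse. The cause was not tested.

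Directions reversed in 12 recomputed differences among those of single genes the report turns on (log2 scale). Genotype: endothelial H2-DMa to -0.0169 in cells without immune UMIs and Ciita to -0.39 in the enriched library, and mural H2-Aa and H2-Ab1 to 0.0663 and 0.10 with the leading gate. Against fibroblasts: mural H2-Ab1 and H2-Eb1 to -0.54 and -0.28 with both libraries and to -0.18 and -0.17 in the enriched library alone, and in cells without immune UMIs epithelial Ciita to -0.0398, mural Cd74 to -0.00134, mural H2-DMb1 to 0.35 and mesothelial H2-DMb1 to -0.14. Only 15 epithelial cells of whole lung were without immune UMIs, where Cd74 was at 827 CPM. In the enriched library alone members not named above also changed sign against fibroblasts, mural H2-Aa (-0.23) and H2-DMa (-0.52) and mesothelial H2-Aa (-0.14), H2-Ab1 (-0.21), H2-Eb1 (-0.37) and Ciita (-0.76). The leading gate, the enriched library alone for lineages and the finer-gate restriction were chosen after the data were seen. The replicate number marks no stated litter or day. Deviations of same-numbered mice correlated at 0.0805 in endothelial to 0.553 in fibroblast cells (across genes, which are not independent), and the replicate block raised the calls over all genes to 18 in immune, 48 in endothelial, 348 in mural and 1762 in fibroblast cells.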
